A study of Arabidopsis thaliana with 12 samples.

Results

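The genes described are AT2G35490, annotated as a fibrillin, AT3G24190, of the ABC1-like kinase family, and AT4G17650, a COQ10-like gene related to ubiquinone. They were found through the platform annotation of the array, which lists each of the 3 alone on 1 probe, so that 3 of the 3439 probes are described. They were chosen by theme with their differences between prors2 and wild type already in view, and no threshold on those values is stated. These differences are therefore given as a description, with no p-value.

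The tested samples are 6 of the Arabidopsis thaliana mutant prors2 (prors2_dark, numbers 1 to 6), which the labels present as devoid of prolyl-tRNA synthetase, an enzyme that joins proline to its tRNA for translation. They were set against 6 wild-type samples (WT2_dark, numbers 1 to 6). Every sample was total RNA of ecotype Columbia 0 plants kept dark overnight, and no light-grown samples were analysed here. The sources used here give no tissue, plant age or mutant allele. The groups rest on the sample titles alone, because the source label names wild type for all 12 samples.

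Plastoglobules are lipid droplets attached to the thylakoid membranes of chloroplasts, which store plastoquinone, tocopherols and other isoprenoid lipids. Fibrillins are proteins of their coat and of the thylakoid and stroma, and kinases of the ABC1 family are among their regulators. Ubiquinone is the related quinone carrier of the mitochondrial respiratory chain. In yeast, Coq10 binds ubiquinone and is needed for normal respiration, and Coq8, the yeast member of the ABC1 family, is needed for ubiquinone synthesis.

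The distribution of intensities differed between the groups, and this bears on every value below. The values are deposited intensities in arbitrary units, listed from 0 to 100 in every sample. The brightest probe was at 100 in each, so brighter means higher relative to that probe. The summed intensity per sample overlapped between the groups, at 2764 to 3404 in prors2 and 2556 to 3032 in wild type, but the medians did not. The sample medians lay between 0.240 and 0.403 in prors2 and between 0.0620 and 0.0852 in wild type, and 431 to 609 probes were listed at 0 in prors2, against 746 to 926 in wild type. A gene can thus be brighter in prors2 and still stand lower among the other probes of the sample. Within prors2, neighbouring sample numbers (1 with 2, 3 with 4 and 5 with 6) were alike. The mean correlation of their deviations from the group mean was 0.69 over 1940 features, against -0.41 for other pairs of prors2 samples. Within wild type it was 0.072 for neighbouring numbers and -0.27 for other pairs. Deviations from a group mean sum to 0, so unrelated samples would correlate below 0 and the 2 values of a group are not independent. Wild-type neighbours were also close in probes at 0, with 791 and 791, 926 and 916, and 755 and 746. Numbers 3 and 4 had the most probes at 0 and the lowest medians in both groups. The labels do not say whether samples are separate plants, so the spread given is that between these samples and may be technical. The 6 samples of a group may therefore not be independent, in either group. In whole-plant or tissue RNA, fewer cells of a type and less RNA per cell cannot be told apart.

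AT2G35490, the fibrillin gene, overlapped between the groups in deposited intensity but stood lower among the probes of each prors2 sample. Its deposited intensity was 0.275, 0.260, 0.0782, 0.0638, 0.153 and 0.101 in prors2 samples 1 to 6. In wild-type samples 1 to 6 it was 0.122, 0.126, 0.136, 0.0915, 0.102 and 0.168. The groups overlapped: prors2 samples 1 and 2 lay above all wild-type samples, and prors2 samples 3 and 4 lay below all of them. The mean was 0.155 ± 0.0922 in prors2 and 0.124 ± 0.0271 in wild type (SD, n = 6 each), a ratio of 1.25. Over the 2684 features tested, this ratio had a median of 2.80, and 19.8% of features had a ratio lower than that of AT2G35490.

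AT3G24190, the ABC1-like kinase gene, was brighter in every prors2 sample than in any wild-type sample. Its deposited intensity was 1.32, 1.09, 0.340, 0.521, 1.04 and 1.03 in prors2 samples 1 to 6. In wild-type samples 1 to 6 it was 0.0978, 0.00599, 0.0780, 0.0478, 0.0701 and 0.0805. Within prors2, samples 3 and 4 were the lowest, and within wild type, sample 2 lay far below the others. The mean was 0.890 ± 0.376 in prors2 and 0.0634 ± 0.0325 in wild type (SD, n = 6 each), a ratio of 14.1, and 92.8% of features had a lower ratio. Without wild-type sample 2 the ratio was 11.9, and the other 5 wild-type values lay between 0.0478 and 0.0978.

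AT4G17650, the COQ10-like gene, was also brighter in every prors2 sample than in any wild-type sample. The highest prors2 value was 1.56 times the lowest for AT4G17650 and 3.89 times for AT3G24190, and the highest wild-type value 2.87 and 16.3 times the lowest. Its deposited intensity was 1.96, 2.20, 1.96, 1.90, 2.66 and 2.96 in prors2 samples 1 to 6. In wild-type samples 1 to 6 it was 0.452, 0.635, 0.334, 0.221, 0.507 and 0.506. In prors2, samples 5 and 6 were the highest, and in wild type, sample 4 was the lowest. The mean was 2.27 ± 0.439 in prors2 and 0.442 ± 0.146 in wild type (SD, n = 6 each), a ratio of 5.14, and 70.9% of features had a lower ratio. As deposited, all prors2 values lay above all wild-type values in 52.5% of the tested features, and below them in 3.2%, so that the separation of AT3G24190 and AT4G17650 on this scale was shared with more features than not.

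**Figure D1:**
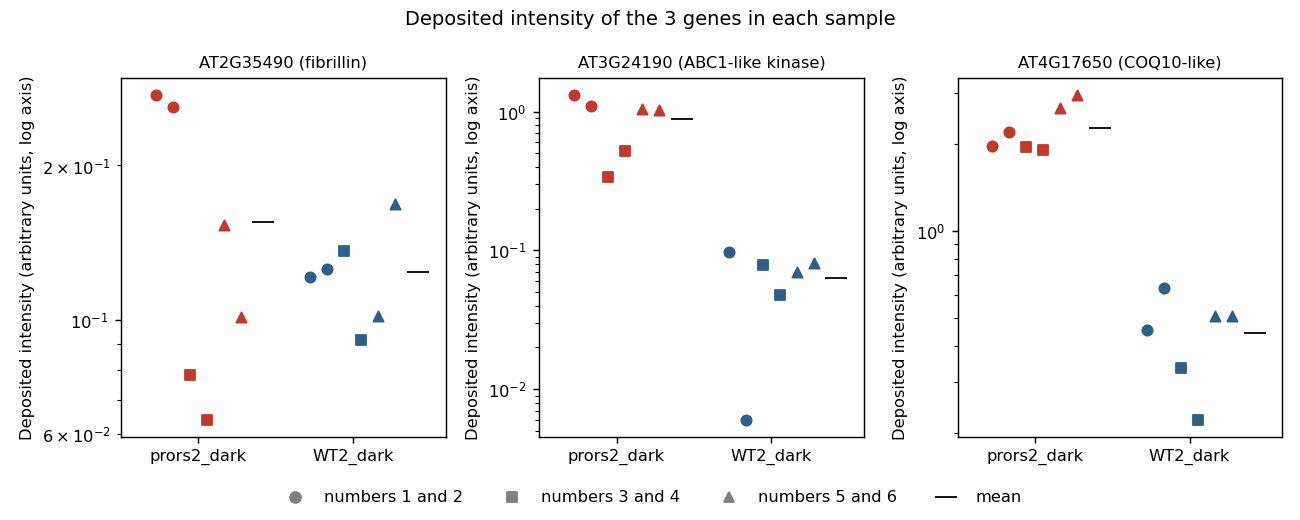
Deposited intensity (arbitrary units, log axis) of the 3 genes in each of the 6 prors2_dark and 6 WT2_dark samples, with marker shapes for consecutive sample numbers and a dash for the mean. The groups overlap for AT2G35490 and are apart for AT3G24190 and AT4G17650, and wild-type sample 2 is far below the other wild-type samples for AT3G24190.

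The rank of a gene among all probes of its own sample does not change when a sample's whole scale is stretched or shifted. It is given as a percentile, and sets one gene against itself in other samples. The change in mean rank is then placed among the changes of all tested features. A gene already near the top can rise little in rank. AT2G35490 was at percentiles 36.1, 35.5, 26.4, 24.4, 26.1 and 19.4 in prors2 samples 1 to 6, and at 59.5, 59.8, 65.7, 57.4, 54.5 and 65.2 in wild-type samples 1 to 6. All prors2 ranks were thus below all wild-type ranks. The mean rank of the fibrillin gene was 28.0 ± 6.53 in prors2 and 60.3 ± 4.40 in wild type (SD, n = 6 each), a difference of -32.4 percentile points, and 2.98% of the tested features had a lower difference.

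AT3G24190 was at percentiles 89.2, 85.9, 62.3, 75.2, 85.7 and 85.5 in prors2 samples 1 to 6, and at 54.4, 25.1, 54.3, 44.7, 46.1 and 48.8 in wild-type samples 1 to 6. The ranks of the kinase gene did not overlap between the groups, and prors2 sample 3 was the nearest to wild type. Its mean rank was 80.6 ± 10.2 in prors2 and 45.5 ± 10.8 in wild type (SD, n = 6 each), a difference of 35.1 points, and 96.6% of features had a lower difference. AT4G17650 had a mean rank of 95.0 ± 0.723 in prors2 and 81.7 ± 4.18 in wild type (SD, n = 6 each). Its lowest prors2 rank, 94.0, was above its highest wild-type rank, 86.7, and its difference was 13.2 points, with 81.1% of features lower.

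**Figure D2:**
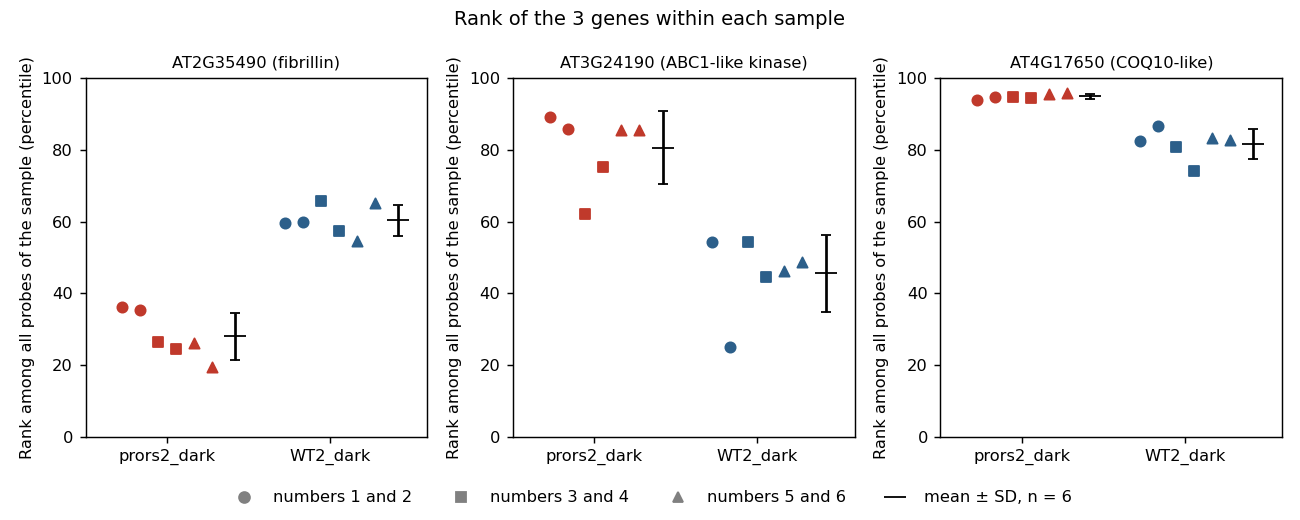
Rank of the 3 genes among all probes of the same sample (percentile from 0 to 100), in 6 prors2_dark and 6 WT2_dark samples. Points are samples and bars are the mean ± SD (n = 6); AT2G35490 ranks lower in all prors2 samples, with a mean of 28.0 against 60.3, and the other 2 genes rank higher.

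The same pattern was seen after the intensities above 0 had been taken to log2 and quantile-normalized, which gives every sample the same distribution of values. The normalized log2 difference (prors2 minus wild type) of AT2G35490 was -1.79 ± 0.28 (SE), from means of -3.99 ± 0.66 in prors2 and -2.21 ± 0.24 in wild type (SD, n = 6 each). It was 2.71 ± 0.57 (SE) for AT3G24190, from means of -0.66 ± 0.76 in prors2 and -3.37 ± 1.34 in wild type (SD, n = 6 each). For AT4G17650 it was 2.03 ± 0.20 (SE), from means of 1.20 ± 0.28 in prors2 and -0.83 ± 0.37 in wild type (SD, n = 6 each). On this scale the groups did not overlap for any of the 3 genes. All prors2 values lay above all wild-type values in 16.3% of the tested features and below them in 13.2%.

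In limma's fit over all 2684 features, with Benjamini-Hochberg adjustment and a threshold of 0.05, 25% of features were called higher in prors2 and 20.6% lower. AT3G24190 and AT4G17650 were among the features called higher and AT2G35490 among those called lower. Nothing is read from these calls, since the genes were chosen with this contrast known. Of all tested features, 4.58% had a lower log2 difference than AT2G35490, and 97.1% and 93.0% had a lower one than AT3G24190 and AT4G17650. With each pair of consecutive samples averaged (3 against 3), 14.3% of 2396 features were called higher and 10.6% lower, and the 3 genes had the same calls. With pairs as a random block (consensus correlation 0.70) AT3G24190 was no longer called, and the standard error of its difference was 1.10.

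The direction of the fibrillin gene depended on the scale. As deposited, its log2 difference was 0.13 ± 0.36 (SE), where the median of all features was 1.49. After centring every sample on its own median it was -1.46 ± 0.28 (SE). AT3G24190 had differences of 4.07 as deposited and 2.48 with median centring, with standard errors of 0.63 and 0.59. AT4G17650 had 2.42 as deposited and 0.83 with median centring, with standard errors of 0.25 and 0.24. The means of the kinase and COQ10-like genes were therefore higher in prors2 on all 3 scales, and the fibrillin gene was lower than in wild type only relative to the other probes. With median centring, however, the groups overlapped for AT4G17650, with 5 of 6 prors2 samples above all wild-type samples. Its median-centred difference in numbers 1 and 2 was 0.15. On the deposited scale limma called 69.6% of features higher and 5.37% lower, and AT3G24190 and AT4G17650 were called higher and AT2G35490 was not called. With median centring 24.3% were called higher and 33.7% lower, and the 3 genes had the same calls as after quantile normalization.

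**Figure D3:**
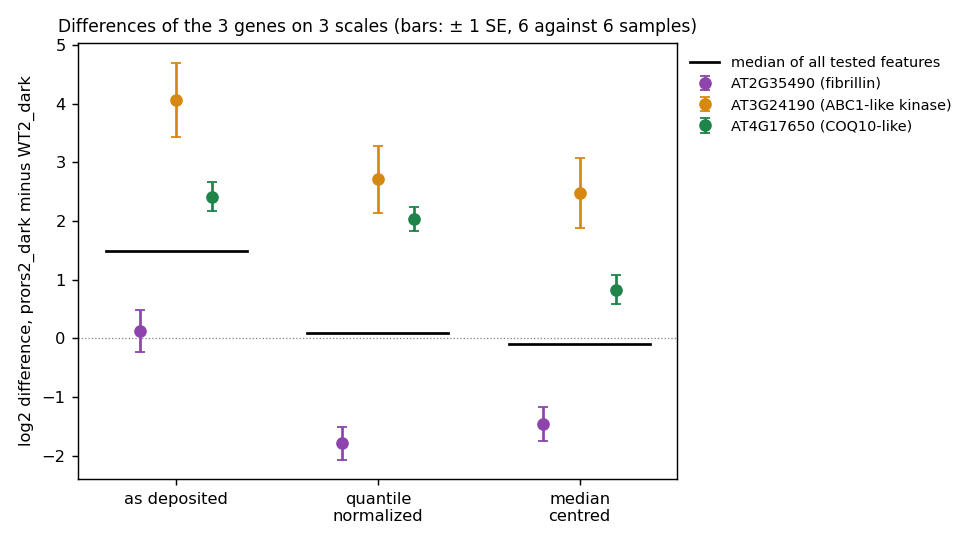
Log2 difference (prors2_dark minus WT2_dark) of the 3 genes as deposited, after quantile normalization and after median centring, with bars of ± 1 standard error (6 against 6 samples). Black lines mark the median of all 2684 tested features, 1.49 as deposited; AT2G35490 lies below this line and the other 2 genes above it on each scale.

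The size of the differences varied between the 3 sets of consecutive numbers, and AT3G24190 had a higher difference than AT4G17650 in the first and last sets and a lower one in numbers 3 and 4. For AT2G35490 the mean deposited intensity was 0.267 in prors2 against 0.124 in wild type for numbers 1 and 2, 0.0710 against 0.114 for numbers 3 and 4, and 0.127 against 0.135 for numbers 5 and 6. The fibrillin gene was thus brighter in prors2 in 1 of the 3 sets only, while its normalized log2 difference was below 0 in each, at -1.01, -2.25 and -2.09. For AT3G24190 the normalized difference was 4.17, 1.39 and 2.56 in the same sets, the first of which contains the low wild-type sample 2. Leaving out that sample lowered the difference of the kinase gene to 2.13. For AT4G17650 the sets gave 1.59, 2.27 and 2.24, the narrowest range of the 3 genes.

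Other genes of the same pathways came from 7 lists of fibrillins, ABC1 kinases, other plastoglobule proteins, plastoquinone and tocopherol synthesis, phylloquinone synthesis, ubiquinone synthesis and function, and quinol oxidases with alternative NAD(P)H dehydrogenases. The lists hold 85 loci besides the 3 genes, and 10 of these have a probe of their own. Only 5 had at least 3 values above 0 in each group and were tested. Of the 5, AT1G78620 rose, though not with median centring, where its sign turned, AT3G27110 fell, and 3 did not pass. That is 1 of 5 in each direction, near the shares of 25% and 20.6% over all features. The counts moved with the scale, with 3 higher and 1 lower as deposited and 1 higher and 3 lower with zeros kept and a pseudocount. Over all features, 69.6% were called higher and 5.37% lower as deposited. With the pseudocount, 702 of 3438 features were called higher and 751 lower. With 5 genes, nothing is read from these counts. The median normalized log2 difference of the 5 genes was -0.39, against 0.09 over all features. The lists of phylloquinone synthesis and of quinol oxidases had no probe of their own, and the ubiquinone list had none besides AT4G17650.

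Of the fibrillin list, AT5G09820 was the only gene besides AT2G35490 that could be tested, and its direction also turned with the scale. Its deposited intensity ran from 0.149 to 0.265 in prors2 (median 0.188) and from 0.0220 to 0.118 in wild type (median 0.0691), with no overlap. After normalization the log2 difference was -0.48 ± 0.31 (SE; limma, adjusted p = 0.232), and it was 1.55 as deposited (limma, adjusted p = 0.00163). Without wild-type sample 2, which was far below the others, AT5G09820 passed as lower (-0.73, limma, adjusted p = 0.0186), and so it did with zeros kept and a pseudocount (-0.64, adjusted p = 0.0227). Of the fibrillin loci, 3 more had too many values at 0 in wild type. AT2G46910 had intensities of 0.849, 0.809, 0.158 and 0.242 in prors2 samples 1, 2, 5 and 6, and was listed at 0 in prors2 samples 3 and 4 and throughout wild type. AT1G51110 lay between 0.0819 and 0.308 in prors2, and 5 of the 6 wild-type values were 0. AT5G19940 was at 0.0620 or less in every prors2 sample and at 0.0337 or less in wild type, with 4 of 6 wild-type values at 0.

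AT2G39190 (ATATH8) was the only ABC1 kinase gene besides AT3G24190 with a probe of its own. It lay between 0.163 and 0.327 in prors2, with a median of 0.266, and between 0 and 0.0339 in wild type. As deposited, both kinase genes were brighter in every prors2 sample than in any wild-type sample, as were 52.5% of the tested features. AT2G39190 had 2 wild-type values above 0 and was not tested.

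Among other plastoglobule proteins, AT3G27110 differed by -2.21 ± 0.29 (SE) on the normalized log2 scale (limma, adjusted p = 9.8e-05), with a deposited mean of 0.143 ± 0.0395 in prors2 and 0.174 ± 0.0328 in wild type (SD, n = 6 each). As deposited its difference was -0.30 and did not pass (limma, adjusted p = 0.205). Like AT2G35490, it ranked lower in every prors2 sample than in any wild-type sample, with mean ranks of 27.5 in prors2 and 67.1 in wild type. On the normalized scale, 13.2% of tested features were apart in this direction. AT4G13200 lay between 0.296 and 0.664 in prors2 and between 0.0224 and 0.123 in wild type, and its normalized difference was 0.86 ± 0.37 (SE; limma, adjusted p = 0.0703). AT4G13200 passed as higher as deposited (2.55, limma, adjusted p = 1.0e-04), with median centring (0.96, adjusted p = 0.0447) and with normalization over complete features (0.90, adjusted p = 0.0432), and without wild-type sample 2 its difference was 0.57. AT1G32220 was listed at 0 in every sample but prors2 sample 5.

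In the list of plastoquinone and tocopherol synthesis, AT1G78620 had a deposited mean of 1.55 ± 0.132 in prors2 and 0.779 ± 0.176 in wild type (SD, n = 6 each), with no overlap. On the normalized log2 scale it differed by 0.71 ± 0.19 (SE; limma, adjusted p = 0.00858). AT1G78620 did not pass once consecutive samples were averaged (limma, adjusted p = 0.138). Median centring gave it a difference of -0.56 (limma, adjusted p = 0.0535). AT1G74470, the geranylgeranyl reductase, which supplies the side chain of chlorophyll and tocopherol, had a mean of 2.64 ± 0.647 in prors2 and 3.85 ± 0.278 in wild type (SD, n = 6 each), with no overlap. Its normalized difference was -0.39 (limma, adjusted p = 0.0968). On other scales AT1G74470 was called lower, namely as deposited (-0.58, limma, adjusted p = 0.0121), with median centring (-2.16, adjusted p = 2.0e-07), with normalization over complete features (-0.55, adjusted p = 0.0187) and with zeros kept and a pseudocount (-0.56, adjusted p = 0.00918).

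**Figure D4:**
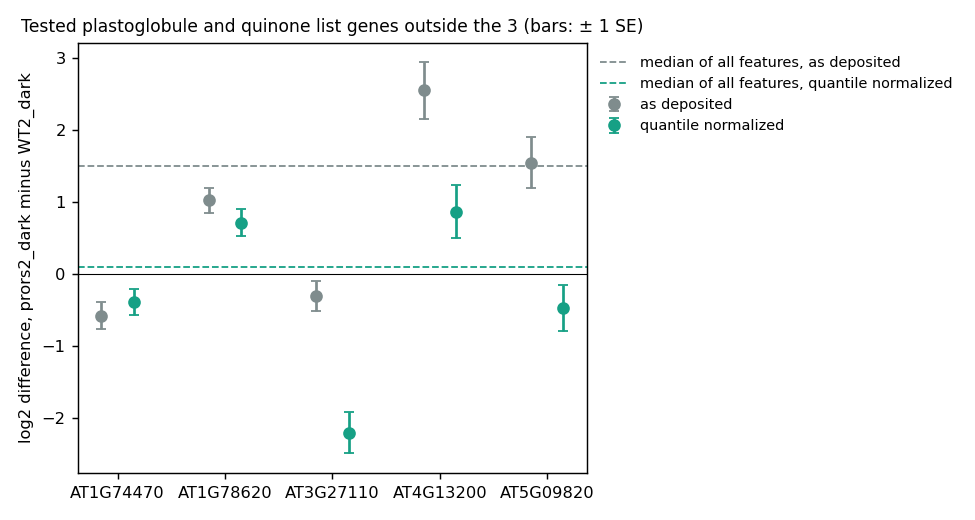
Log2 difference (prors2_dark minus WT2_dark) of the 5 tested list genes besides the 3, as deposited (grey) and after quantile normalization (green), with bars of ± 1 standard error. Dashed lines mark the medians of all tested features, 1.49 and 0.09; AT5G09820 lies above 0 as deposited and below 0 after normalization.

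To see which genes had profiles most like the 3, each normalized profile was centred on its own mean and the root mean square difference to 495 other features with 1 named gene was taken over 10 to 12 samples. These distances include the difference between the groups, so they are not evidence of shared control. AT2G35490 was nearest to AT1G68660 (0.44 log2 units), AT2G35390 (0.45) and AT1G34270 (0.47), where the median feature was at 1.24. AT3G24190 was nearest to AT3G50130 (0.43), AT4G17440 (0.56) and AT3G08000 (0.57), with a median of 1.67. AT3G50130 and AT3G08000 were at 0 in wild-type samples 2 and 4, so their distances rest on 10 samples. They leave out the low value of AT3G24190 in wild-type sample 2, which the distance of AT4G17440 over 12 samples includes. The 3 distances are therefore not on the same samples. AT4G17650 was nearest to AT1G06730 (0.37), AT3G56290 (0.37, over 10 samples) and AT4G35660 (0.38), with a median of 1.12. The neighbours depended on the scaling. With no normalization, and likewise with median centring, 0 of the 3 neighbours of AT2G35490 and 1 of the 3 of each of the other genes remained among the nearest. Among the 3 genes themselves AT3G24190 and AT4G17650 were 1.16 apart, while AT2G35490 was 2.44 from AT3G24190 and 1.99 from AT4G17650.

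**Figure D5:**
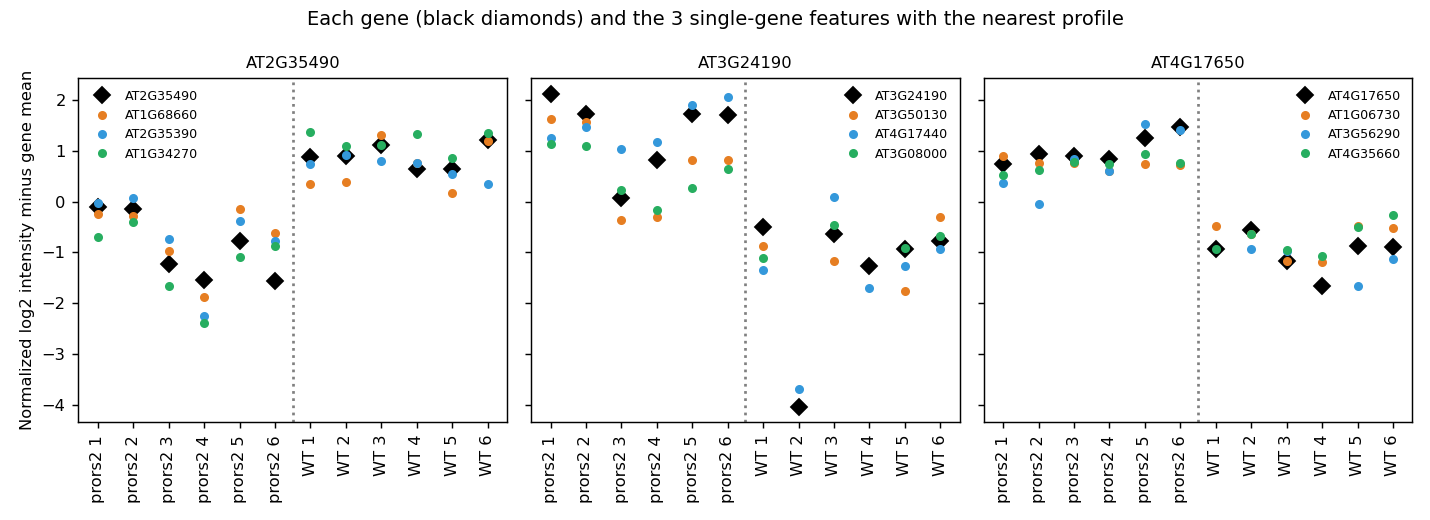
Normalized log2 intensity minus the mean of each gene, in prors2 samples 1 to 6 and wild-type samples 1 to 6, for each of the 3 genes (black diamonds) and its 3 nearest features (coloured points). Values at 0 are missing; the nearest features of AT2G35490 are lower in prors2 and those of the other 2 genes higher, and AT4G17440 shares with AT3G24190 the low value of wild-type sample 2.

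Of 3 markers of green tissue with a probe of their own, all were above 0 in every sample. None of the 3 passed limma's test after quantile normalization, though LHB1B2 was lower in every prors2 sample on that scale, as were 13.2% of features. With median centring, all 3 were lower in every prors2 sample than in any wild-type sample. Those differences were -2.51 for LHB1B2, -2.27 for PSAN and -1.85 for PRK. The brightest probe was at 100 in every sample while the medians were higher in prors2. Median centring alone therefore sets the brightest probe lower in every prors2 sample. The 3 markers were also bright, with mean ranks of 97.0 to 99.4 in prors2. On this scale 33.7% of features were called lower. As deposited, the ratios of means of LHB1B2, PSAN and PRK were 0.54, 0.69 and 0.85, against a median of 2.80 over the tested features. LHB1B2, a light-harvesting protein gene, was at 20.6 ± 5.21 in prors2 and 38.0 ± 2.74 in wild type (SD, n = 6 each). PSAN, a photosystem I subunit gene, was at 6.35 ± 3.07 in prors2 and 9.23 ± 1.67 in wild type, and PRK, the phosphoribulokinase gene, at 3.71 ± 0.893 in prors2 and 4.37 ± 0.508 in wild type (SD, n = 6 each). As deposited, the groups overlapped for PSAN and PRK, and the part of the 3 markers in the results above was not tested. None of the root or seed markers had a probe of its own. AT5G52520, a gene for prolyl-tRNA synthetase that was taken as the mutated one by assumption, is listed by 0 probes, so the mutant label was not checked on it.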

How the data were processed

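Total RNA of 12 samples had been measured by array. The authors deposited intensities of 3439 probes on a linear scale in arbitrary units, and the sources used here do not say how these were scaled or background-corrected. The platform annotation lists 1 gene for 692 probes, several for 870, and does not list 1877, and 690 of the 692 matched the RefSeq gene table of assembly TAIR10.1. Intensities of 0 were set to missing, log2 was taken of the rest, samples were quantile-normalized, and probes of one gene were averaged, which gave 3438 features. Features needed 3 or more nonzero values per group, which 2684 had, and these were fitted with limma 3.58.1 (lmFit, eBayes; R 4.3.3), 6 against 6 samples, 2-sided, with no covariate. The number of arrays limits the precision. This step was tested on simulated data holding known changes. The simulated samples were drawn independently of each other, so the error rate with neighbouring samples alike was not tested. The 3 genes, the gene lists and the alternatives were chosen with earlier results of these data known. The genes named are the 3, every list gene with a probe of its own, and the 3 features nearest to each in profile. No sequences are shown.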

Additional observations from a re-analysis of the deposited data

Results flagged for a closer look

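Each group of 6 normalized values with none at 0, 19 in all, was searched for a sample that lay apart. Chance would mark about 1 in 20, and 2 were marked, both through wild-type sample 2. It had a normalized log2 intensity of -6.04 for AT3G24190, whereas wild type otherwise ran from -3.28 to -2.51. For AT5G09820 it had -4.30, and the others lay between -2.96 and -2.25. Another 7 groups had values at 0 and were left out.

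Of 7 probes that list several genes, all of them on the fixed lists, 1 was higher after normalization in every prors2 sample than in any wild-type sample with a value above 0. Over all tested features the share was 16.3%. That probe lists PGL34 and AT2G42130, 2 fibrillin loci that it cannot tell apart. Its normalized log2 difference was 1.69, with deposited means of 0.218 ± 0.0328 in prors2 and 0.0102 ± 0.0100 in wild type (SD, n = 6 each). Another of the 7 probes lists the same 2 loci and did not show this, being at 0 in every prors2 sample. In wild type that other probe had a mean of 0.00341 and reached 0.0204 at most.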

How the results depend on the processing

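The differences of AT3G24190 and AT4G17650 stayed above 0 in all 29 alternatives run. Several of these changed only the filter, the variance model, the block or the averaging of pairs. Such alternatives returned the main differences of the 3 genes unchanged and could not have turned their sign. That of AT2G35490 stayed below 0 in all but one, being 0.13 with no normalization. Leaving out 1 sample at a time gave -1.99 to -1.67 for AT2G35490, 2.13 to 3.01 for AT3G24190 and 1.87 to 2.15 for AT4G17650. Shifts beyond these ranges included those with no normalization (4.07 for AT3G24190, 2.42 for AT4G17650) and median centring (0.83 for AT4G17650). Numbers 1 and 2 only gave -1.01, 4.17 and 1.59 for the 3 genes in the order above. Numbers 3 and 4 only gave 1.39 for AT3G24190. With zeros kept and a pseudocount, the 3 genes had -1.41, 1.77 and 1.78. AT3G24190 was at 3.30 without numbers 3 and 4, and below its range without numbers 1 and 2. The cause of these shifts was not tested. Counts of features called higher and lower were 671 and 554. They were 1869 and 144 with no normalization (92.8% higher, against 54.8%), 653 and 905 with median centring (41.9% higher), 358 and 313 with pairs as a random block, 342 and 254 with pairs averaged, and 444 called higher without numbers 5 and 6. Leaving out 1 sample gave 604 to 653 higher and 506 to 542 lower. With the replicate number as a fixed block, 669 were higher and 540 lower, and the calls of the 3 genes did not change. Same-numbered samples correlated best with each other for 4 of 6 numbers, and the correlation was 0.053 to 0.16. The main fit did not take the numbers as pairs, and whether same-numbered samples share a batch was not tested. AT1G78620 turned to -0.56 with median centring, and AT5G09820 to 1.55 with no normalization.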

Other observations

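A second probe lists AT2G35490 together with 3 other fibrillin genes (AT5G09820, AT4G22240 and FIB) and cannot be assigned to one of them. Its deposited intensity was 0.617 ± 0.0748 in prors2 and 0.426 ± 0.0757 in wild type (SD, n = 6 each), with a ratio of 1.45, and its normalized log2 difference was -0.48. As for the probe of AT2G35490 alone, the ratio was above 1 as deposited and the difference below 0 after normalization.

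A probe shared by 3 fibrillin genes (AT4G22240, FIB and AT2G46910) was listed at 0 in all 12 samples, whereas the probe of AT2G46910 alone was above 0 in 4 prors2 samples. A probe shared by AT3G26080 and AT3G26070 had a deposited intensity of 0.207 ± 0.0868 in prors2 and 0.0175 ± 0.0162 in wild type (SD, n = 6 each). After normalization its log2 difference was 0.80 and the groups overlapped, with a lowest prors2 value of -3.91 and a highest wild-type value of -3.62. As deposited, the probes shared by list genes thus ranged from no signal in any sample to a signal well above that of wild type.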
